A study of Mus musculus with 4 samples.

Results

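T cells of mouse pancreatic islets were divided here by the hydropathy of the centre of their TCR β-chain loop. Members are called cells with exactly 1 productive TRB and at least 1 productive TRA whose TRB CDR3 residues 6 and 7, counted from the first cysteine as residue 1, have a mean Kyte-Doolittle hydropathy above 0. Kyte-Doolittle values are positive for the residues called hydrophobic here. They are negative for polar residues and also for glycine, tryptophan and proline. Of 11035 paired cells, 2197 were members and 8836 were not. A further 2 paired cells had a TRB CDR3 of under 7 residues and were not classed. Cells with the same V, J and CDR3 nucleotide sequence of both chains in 1 library were counted as 1 clonotype, which gave 1555 hydrophobic clonotypes among 7178.

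The study sequenced TCR transcripts of single islet cells from 2 libraries of Tet2KO NOD mice (genotype label KO) and 2 libraries of NOD mice (genotype label WT). NOD mice spontaneously develop an autoimmune form of diabetes, and TET2 is a dioxygenase that oxidises 5-methylcytosine in DNA. All 4 libraries share the NOD background. The Tet2-/- line came from breeders on the B6 background and was backcrossed to NOD females for over 14 generations. The mice were 10 to 13 weeks old by the series' design text, whereas the protocol counts 10 to 13 weeks from a procedure it abbreviates as BTM. The labels give no treatment. Islets of 4 to 6 mice were pooled per library, so the library is the replicate and cells of different mice cannot be told apart. Exact permutation p-values below compare pools, whereas those of the segment tests rest largely on clonotype counts.

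The CDR3 loops of a TCR lie over the bound peptide, and the centre of the β-chain loop is its main contact. This stretch is assembled from the end of a V segment, a D segment, the start of a J segment and random nucleotides added at the joints. Hydrophobic residues at positions 6 and 7 of the β-chain CDR3 are known to favour self-reactive TCRs. TRBD1 can join TRBJ1 or TRBJ2 segments, while TRBD2 joins only TRBJ2.

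The Tet2KO NOD libraries held 1957 and 1664 called cells, and the NOD libraries 6835 and 2889. The paired share was between 81.4% and 85.7% in every library. Median TRB UMIs per paired cell were between 10 and 13, and median TRA UMIs were 6 in each library. Productive TRG and TRD contigs and immunoglobulin contigs, which mark other lymphocytes, were at 0 in called cells. TRG or TRD contigs that were not productive numbered 15 and 30 in Tet2KO NOD and 144 and 45 in NOD. Because TCR transcripts were sequenced, the 0 for immunoglobulin does not show whether such cells were present. Between 4 and 30 cell barcodes were shared by each pair of libraries, and none of them carried the same clonotype in both. Intervals below are 95% Wilson intervals, which cover counting error only.

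The germline ends from which residues 6 and 7 are built are shown first, because the segment results refer back to them. Capitals in the V ends mark bases that reach codon 6, and capitals in TRBD2 mark its leucine codon. The TRBV13-1 end lies at chr6:41116453-41116468, the TRBV13-2 end at chr6:41121817-41121832, the TRBV5 end at chr6:41062787-41062803 and the TRBV2 end at chr6:41047979-41047995. TRBD1 lies at chr6:41533201-41533212 and TRBD2 at chr6:41542163-41542176. All are on the plus strand of GRCm38, which is a C57BL/6 genome and not that of NOD. The V ends are the coding 3′ ends of V segments, and the D segments are coding in full.
TRBV13-1 end: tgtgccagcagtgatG
TRBV13-2 end: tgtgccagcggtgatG
TRBV5 end: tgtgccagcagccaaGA
TRBV2 end: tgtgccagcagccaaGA
TRBD1: gggacagggggc
TRBD2: gggaCTGggggggc

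The next sequences are the TRB CDR3s of member clonotypes that the results turn on, with codons 6 and 7 in capitals. They are the largest member clonotype of each library, the member clonotype with the most cells in more than 1 library, and 1 example of the TRAV5-4 and TRAJ50 group described further on. The rearranged TRB genes are on chromosome 6.
Tet2KO NOD 1, TRBV3 TRBJ2-7, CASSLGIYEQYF, 32 cells: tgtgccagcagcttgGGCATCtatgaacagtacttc
Tet2KO NOD 2, TRBV16 TRBJ1-4, 7 cells: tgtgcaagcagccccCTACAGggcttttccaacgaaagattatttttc
NOD 1, TRBV5 TRBJ2-4, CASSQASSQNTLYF, 31 cells: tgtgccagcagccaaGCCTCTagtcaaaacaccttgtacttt
NOD 2, TRBV17 TRBJ1-1, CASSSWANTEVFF, 15 cells: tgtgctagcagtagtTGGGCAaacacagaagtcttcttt
Tet2KO NOD 1 and NOD 1, TRBV16 TRBJ2-7, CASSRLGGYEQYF, 20 cells: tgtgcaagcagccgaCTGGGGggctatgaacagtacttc
NOD 1, TRBV13 family with TRBJ2-3, 4 cells: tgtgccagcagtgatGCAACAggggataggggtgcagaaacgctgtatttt

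How large the hydrophobic fraction was in each genotype is the first comparison. Hydrophobic clonotypes were 169 of 899 in Tet2KO NOD 1 (18.8%, 16.4 to 21.5%) and 194 of 993 in Tet2KO NOD 2 (19.5%, 17.2 to 22.1%). They were 834 of 3593 in NOD 1 (23.2%, 21.9 to 24.6%) and 358 of 1693 in NOD 2 (21.1%, 19.3 to 23.2%). Both Tet2KO NOD libraries lay below both NOD libraries, although only the intervals of Tet2KO NOD 1 and NOD 1 were separate. The mean share was 19.2 ± 0.522% in Tet2KO NOD and 22.2 ± 1.46% in NOD (SD, n = 2 each), a difference of -3.01 percentage points. The exact two-sided permutation test over the 6 possible genotype assignments gave p = 0.333, the smallest p this design allows (0.583 after Benjamini-Hochberg adjustment over 14 tests of class or genotype). A difference between genotypes could therefore not be established with 2 pools each.

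Counted per cell, the genotypes overlapped. Members made up 19.5% of 1604 cells in Tet2KO NOD 1 and 16.3% of 1392 in Tet2KO NOD 2, against 21.6% of 5562 in NOD 1 and 18.3% of 2475 in NOD 2. The difference of the genotype means was -2.12 percentage points (exact permutation p = 0.667, n = 2 each), and it was -0.464 without NOD 1, -0.544 without Tet2KO NOD 2, -3.69 without Tet2KO NOD 1 and -3.77 without NOD 2. Tet2KO NOD 1 was above NOD 2 on this scale and below it per clonotype.

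**Figure D1:**
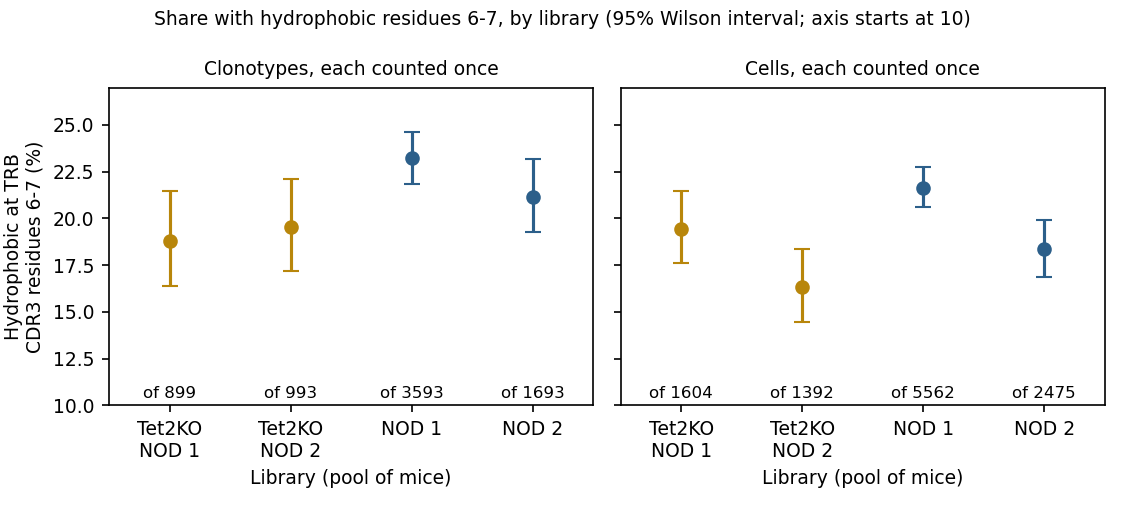
Share of clonotypes (left) and of cells (right) with hydrophobic TRB CDR3 residues 6 and 7, in percent on an axis that starts at 10, by library, with 95% Wilson intervals and the denominator under each point. Per clonotype, both Tet2KO NOD points (18.8 and 19.5%) lie under both NOD points (23.2 and 21.1%). Per cell, the genotypes overlap.

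Which residues made the members hydrophobic follows from the rule and is given as a description. At position 6, alanine was present in 25.4% of hydrophobic clonotypes, glycine in 20.3%, leucine in 18.3%, valine in 12.7% and aspartate in 5.27%. At position 7, glycine led with 34.3%, followed by leucine (18.3%), alanine (12.3%), valine (7.78%) and isoleucine (4.44%). Only 7.01% of hydrophobic clonotypes had a positive value at both positions. In the others a hydrophobic residue stood beside glycine or a residue of lower value.

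Of 110 distinct residue pairs, 5 made up 48.2% of hydrophobic clonotypes, namely alanine-glycine with 212 clonotypes, leucine-glycine with 208, glycine-leucine with 144, glycine-alanine with 93 and valine-glycine with 92. Glycine at position 6 or 7 was about as common in hydrophobic (54.5%) as in other clonotypes (52.8%). A charged residue stood at position 6 or 7 in 9.20% of hydrophobic and 48.0% of other clonotypes. Just inside the threshold, at a mean of 0.10, were alanine with proline in either order, with 47 clonotypes and 51 cells. Just outside, at a mean of 0, were isoleucine with arginine in either order, with 11 clonotypes and 13 cells.

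The leading pairs did not all move one way between genotypes. As a share of all clonotypes of a library, valine-glycine was 0.445% and 1.11% in the Tet2KO NOD libraries, against 1.56% and 1.24% in the NOD libraries. Glycine-leucine was 1.45% and 2.01% in the Tet2KO NOD libraries, against 2.12% and 2.07% in the NOD libraries. Leucine-glycine was 2.89% and 2.52% in the Tet2KO NOD libraries, against 2.92% and 3.07% in the NOD libraries. These pairs were thus lower in both Tet2KO NOD libraries, leucine-glycine and glycine-leucine by little. Glycine-alanine ran the other way, with 1.56% and 2.11% in the Tet2KO NOD libraries, against 1.20% and 0.886% in the NOD libraries. Alanine-glycine overlapped, with 2.89% and 3.22% in the Tet2KO NOD libraries, against 3.15% and 2.42% in the NOD libraries. No test was run on the pairs. Lack of overlap is frequent with 2 libraries per genotype, and 18 of 54 segments tested within the hydrophobic clonotypes (33.3%) showed it too. The pair values are therefore a description.

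At the neighbouring residues no difference between the classes was called. Residue 5 averaged -0.845 ± 0.123 in hydrophobic and -0.666 ± 0.0722 in other clonotypes (SD over 4 libraries). The difference of -0.179 had p = 0.25 in an exact paired permutation test that swaps the classes within libraries, for which 0.125 is the smallest possible p. Residue 8 averaged -1.10 ± 0.0744 in hydrophobic and -1.12 ± 0.0359 in other clonotypes (difference 0.0142, exact p = 0.875, n = 4).

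**Figure D2:**
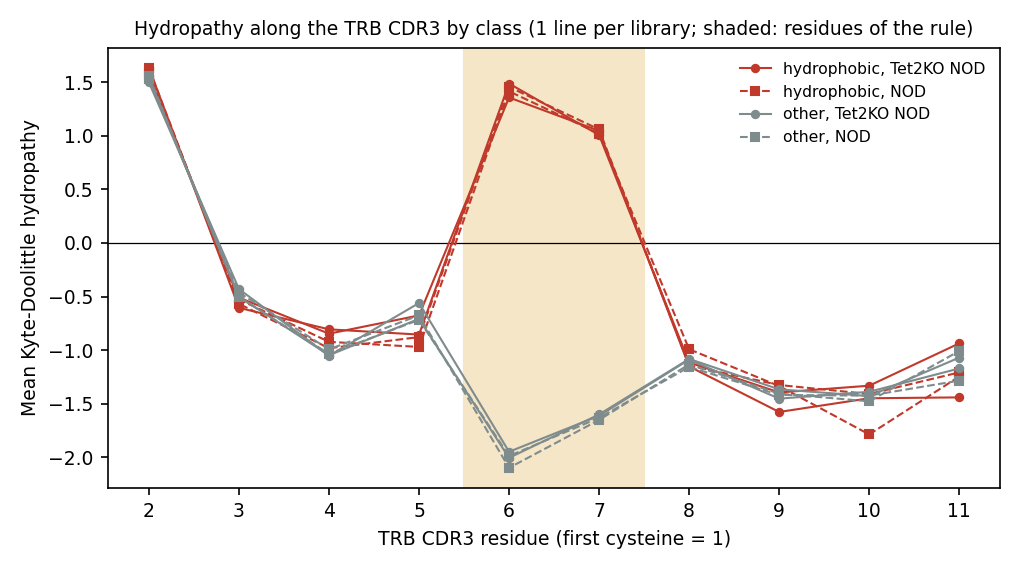
Mean Kyte-Doolittle hydropathy at TRB CDR3 residues 2 to 11 for hydrophobic (red) and other (grey) clonotypes, with 1 line per library (solid for Tet2KO NOD, dashed for NOD). The classes separate at residues 6 and 7, which chose them (shaded), and run close together at residues 5 and 8.

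The codons of the leading pairs were read next. Leucine-glycine was written CTGGGG in 154 of 208 clonotypes (74.0%), and glycine-leucine was written GGACTG in 118 of 144 (81.9%). Both 6-base strings stand in TRBD2, printed above, in the frame that reads its capitals as leucine, and neither stands in TRBD1. Alanine-glycine used 16 different codon pairs, with GCAGGG in 65 of 212 clonotypes, and valine-glycine was written GTGGGG in 46 of 92.

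CTGGGG in frame at codons 5 to 9 was present in 20.8% of hydrophobic clonotypes and in 2.19% of other clonotypes. By library it was found in 20.1% and 19.1% of hydrophobic clonotypes in Tet2KO NOD, and in 21.1% and 21.5% in NOD. It was present in 28.7% of hydrophobic clonotypes with a TRBJ2 segment and in 1.13% of those with a TRBJ1 segment. Where the files called a D segment, TRBD2 was named in 48.3%, 48.6%, 56.3% and 63.5% of hydrophobic clonotypes of Tet2KO NOD 1, Tet2KO NOD 2, NOD 1 and NOD 2, against 29.4%, 30.5%, 26.2% and 34.2% of other clonotypes. A D segment was called in no more than 25.2% of clonotypes in any class and library, and since D encodes the residues of the rule, this is a description.

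Segment use was compared between the classes with edgeR on clonotype counts, with the library as a block. The common dispersion of this fit was 9.77e-05, so its standard errors and p-values reflect mostly counting error and little of the spread between pools. Of 91 TRBV, TRBJ, TRAV and TRAJ segments tested, 6 passed an adjusted p of 0.05 (6.59%), with 5 higher in hydrophobic clonotypes (5.49%) and 1 lower (1.1%). They were the joined name TRBV12-2+TRBV13-2, TRBV13-1 and TRBJ2-3, TRBJ1-1 on the lower side, and, on the α chain that the rule did not read, TRAJ50 and TRAV13-4-DV7. In GRCm38, TRBJ1-1 lies at chr6:41533864-41533911 and TRBJ2-3 at chr6:41543223-41543271, and TRAJ50 at chr14:54167590-54167652 and TRAV13-4-DV7 at chr14:53757356-53757921, all on the plus strand. At an unadjusted p under 0.05 there were 16 (17.6%), and 24 segments (26.4%) differed in 1 direction in all 4 libraries. TRBV and TRBJ bases can lie in codons 6 and 7, so the β-chain differences are tied to the rule. DESeq2 called only TRBJ1-1 of the 6, and without NOD 1, the library with the most clonotypes, none of 51 segments passed.

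**Figure D3:**
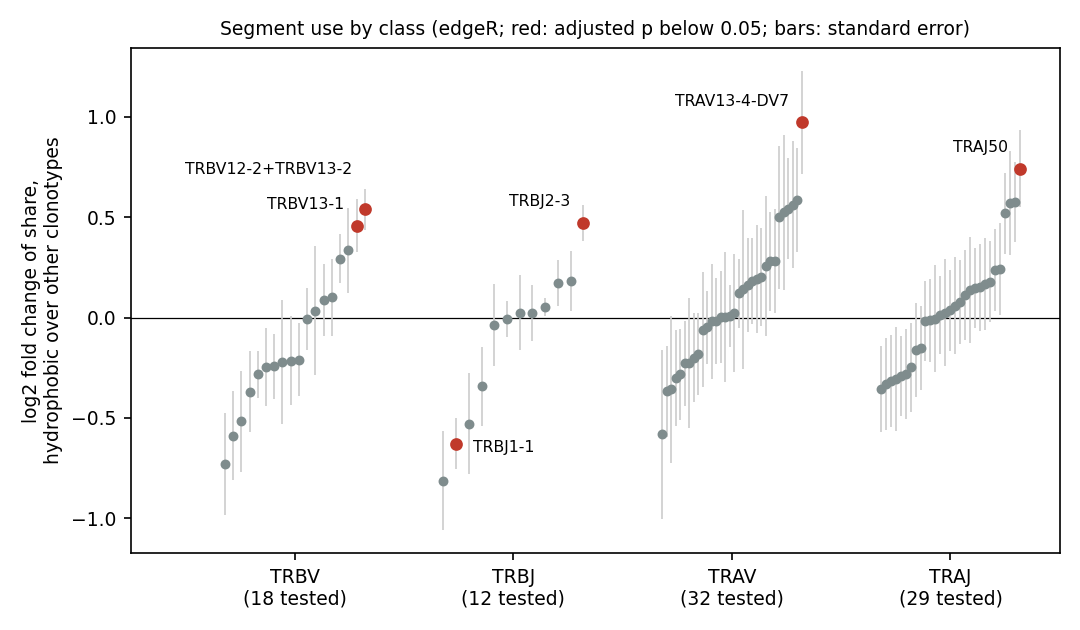
Log2 fold change in the share of clonotypes that use a segment, hydrophobic over other, for the 91 segments tested, ordered within each kind, with standard errors. The 6 segments past an adjusted p of 0.05 are red and named, and 5 of them are above 0.

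Both V segments of the β chain that passed belong to the TRBV13 family. The joined name TRBV12-2+TRBV13-2, under which the files list most TRBV13-2 contigs, was used by 19.5% and 8.76% of hydrophobic clonotypes in Tet2KO NOD and by 16.2% and 14.5% in NOD. The other clonotypes used it at 11.0% and 10.8% in Tet2KO NOD and 10.7% and 9.59% in NOD. It was thus higher in 3 of 4 libraries and lower in Tet2KO NOD 2 (log2 fold change 0.54, SE 0.10, edgeR adjusted p = 0.00102). The call was lost without Tet2KO NOD 1 (0.49, adjusted p = 0.0580). TRBV13-2 also appears under its own name (49 hydrophobic clonotypes, against 237 under the joined name), and 7 hydrophobic and 19 other clonotypes were split by this naming alone.

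TRBV13-1 was used by 11.8% and 14.9% of hydrophobic clonotypes in Tet2KO NOD and 10.6% and 9.50% in NOD, against 7.40%, 6.38%, 8.48% and 8.24% of other clonotypes in the same order of libraries. It was higher in 4 of 4 libraries (log2 fold change 0.46, SE 0.13, edgeR adjusted p = 0.0283). The call was lost without either Tet2KO NOD library (adjusted p = 0.155 without the first and 0.148 without the second). Over the whole TRBV13 family, 530 of 2022 clonotypes were hydrophobic (26.2%), compared with 19.9% of the rest, and the family was above the rest in each library.

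The printed ends of TRBV13-1 and TRBV13-2 put a single G into codon 6, the first base of alanine, glycine, valine, aspartate and glutamate codons. Alanine stood at position 6 in 16.5% of the family's 2022 clonotypes and in 4.31% of clonotypes outside it. Of the 395 hydrophobic clonotypes with alanine at position 6, 231 (58.5%) used the family. TRBV13-3 has the same end as TRBV13-1, yet alanine stood at position 6 in 9.84% of its 386 clonotypes, and 18.9% of them were hydrophobic. TRBV19 also puts a single G into codon 6. Alanine stood at position 6 in only 5.02% of its 618 clonotypes, and 25.2% of them were hydrophobic. TRBV5 and TRBV2 end in GA, the start of aspartate and glutamate codons. With both bases kept, 9.63% of 270 TRBV5 clonotypes were hydrophobic, and with fewer kept 23.6% of 474 were. For TRBV2 the shares were 12.1% of 207 with both bases and 26.9% of 212 with fewer. TRBV16, TRBV1 and TRBV17 end in GA too, and with both bases 9.09% of 99, 15.7% of 115 and 21.4% of 14 were hydrophobic. With fewer bases 24.7% of 393, 20% of 370 and 22.1% of 95 were, so the gap was small for TRBV1 and TRBV17. A kept GA makes residue 6 aspartate or glutamate (-3.5 each), so the rule itself lowers the share.

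When only clonotypes whose codons 6 and 7 lay outside the germline V and J matches were compared, an alternative chosen after seeing the data, 640 hydrophobic clonotypes (41.2%) and 3327 others (59.2%) remained. TRBV13-1 then had a log2 fold change of 0.10 (edgeR adjusted p = 0.770), the joined TRBV12-2+TRBV13-2 name 0.29 (adjusted p = 0.273) and TRBJ2-3 0.40 (adjusted p = 0.152). None of these passed, whereas TRBJ1-1 (-0.88, adjusted p = 0.0166) and TRAJ50 (1.12, adjusted p = 0.0281) did. Any base equal to the germline end counts as a match here. TRBV13 loops with an unbroken end and a G opening codon 6 are therefore removed, alanine, glycine and valine loops among them. The TRBV13 values under this setting cannot be read apart from that removal.

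Other frequent TRBV segments did not pass. TRBV19 was used by 8.88% and 9.28% of hydrophobic clonotypes in Tet2KO NOD and 9.23% and 12.8% in NOD (log2 fold change 0.29, edgeR adjusted p = 0.235), above the other class in each library. Within TRBV19, 25.2% of 618 clonotypes were hydrophobic. TRBV5 was used by 5.33% and 11.9% in Tet2KO NOD and 8.63% and 9.50% in NOD (log2 fold change -0.28, adjusted p = 0.235), and 18.5% of its 744 clonotypes were hydrophobic. Within TRBV2, 19.6% of 419 clonotypes were hydrophobic.

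The J segments of the β chain differed by cluster when pooled, though not segment by segment. Of TRBJ2 clonotypes, 21.1% and 20.8% were hydrophobic in Tet2KO NOD and 24.4% and 22.9% in NOD. Of TRBJ1 clonotypes, 13.8% and 17.0% were hydrophobic in Tet2KO NOD and 20.9% and 17.3% in NOD. TRBJ2 was thus above TRBJ1 in each library, with 1111 of 4806 clonotypes (23.1%) against 444 of 2372 (18.7%).

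TRBJ2-3 was higher in the hydrophobic class. It was used by 17.2% and 14.9% of hydrophobic clonotypes in Tet2KO NOD and 13.4% and 14.0% in NOD, against 11.1%, 10.8%, 10.0% and 10.0% of other clonotypes (log2 fold change 0.47, SE 0.09, edgeR adjusted p = 0.00189). The classes did not overlap. Among clonotypes with a TRB CDR3 of 14 residues the difference was -0.02, which reverses its direction (adjusted p = 0.946). TRBJ1-1 was lower in the hydrophobic class, with 5.33% and 7.22% in Tet2KO NOD and 7.07% and 5.87% in NOD, against 10.8%, 10.6%, 10.3% and 9.59% of other clonotypes (log2 fold change -0.63, SE 0.13, edgeR adjusted p = 0.00121). It was lower in 4 of 4 libraries.

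The most used TRBJ segments beside these were TRBJ2-7, TRBJ2-5 and TRBJ2-1, with mean shares of 21.1%, 12.7% and 11.2% of hydrophobic clonotypes. Their log2 fold changes were 0.05, -0.01 and 0.17, and none passed (edgeR adjusted p = 0.804, 0.998 and 0.542). TRBJ2-7 ranged from 18.9% to 23.2% over the libraries.

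**Figure D4:**
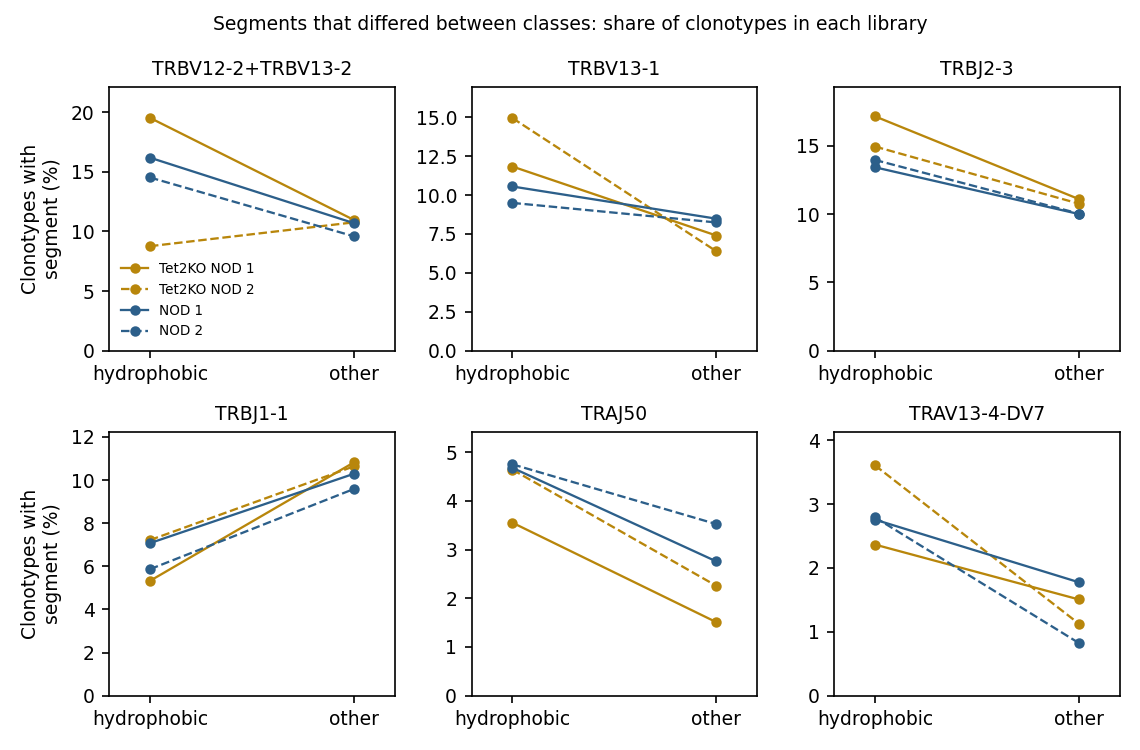
Share of clonotypes, in percent, that use each of the 6 segments that passed, in hydrophobic (left) and other (right) clonotypes, with 1 line per library. The lines for TRBV13-1, TRBJ2-3, TRAJ50 and TRAV13-4-DV7 fall from left to right in each library, those for TRBJ1-1 climb, and Tet2KO NOD 2 crosses the others for TRBV12-2+TRBV13-2.

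Loop length was compared next, because it sets how far residues 6 and 7 lie from the J segment. The hydrophobic TRB CDR3s averaged 14.1 residues in each Tet2KO NOD library and 14.2 in each NOD library. Over 4 libraries the mean was 14.17 ± 0.0497 residues in hydrophobic and 13.95 ± 0.0366 in other clonotypes (SD). The difference of 0.219 ± 0.0563 residues was positive in 4 of 4 libraries (exact paired permutation p = 0.125, the smallest possible; 0.438 after adjustment over 14 tests). The hydrophobic share was 16.4% at 12 or fewer residues, 19.6% at 13, 23.2% at 14, 21.4% at 15 and 27.7% at 16 or more. In the longest class it was 24.3% and 21.8% in Tet2KO NOD, and 28.4% and 31.3% in NOD.

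The α chain is the partner that the rule did not read. Its CDR3 averaged 13.59 ± 0.0950 residues beside a hydrophobic β chain and 13.67 ± 0.0406 beside another (difference -0.0757, exact paired permutation p = 0.25, n = 4 libraries). The difference was -0.271 in Tet2KO NOD 1 and 0.00824 in Tet2KO NOD 2, against -0.0169 in NOD 1 and -0.0233 in NOD 2, so its mean rested on 1 library and was -0.0107 without it. The mean hydropathy of its own residues 6 and 7 was -1.29 ± 0.0669 and -1.27 ± 0.0192 (difference -0.0218, exact p = 0.625, n = 4). Cells with a further productive TRA made up 7.69% and 9.69% of hydrophobic cells in Tet2KO NOD and 9.80% and 11.9% in NOD, against 11.3%, 11.1%, 13.3% and 13.0% of other cells. The share was lower in 4 of 4 libraries, by 2.39 ± 1.32 percentage points (exact p = 0.125, the smallest possible).

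Among 32 TRAV and 29 TRAJ segments, 1 of each passed (3.12% and 3.45%). TRAJ50 was used by 3.55% and 4.64% of hydrophobic clonotypes in Tet2KO NOD and 4.68% and 4.75% in NOD, against 1.51%, 2.25%, 2.75% and 3.52% of other clonotypes. The classes did not overlap (log2 fold change 0.74, SE 0.19, edgeR adjusted p = 0.0134). The call was lost without NOD 1 (0.71, adjusted p = 0.277), without Tet2KO NOD 1 (0.70, adjusted p = 0.0645) and with each cell counted once (0.59, adjusted p = 0.560).

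The 71 hydrophobic clonotypes with TRAJ50 used 28 TRAV segments, and 20 of them used TRAV5-4. The pairing of TRAV5-4 with TRAJ50 was singled out after its values were seen, so it has no test. It was present in 1, 4, 14 and 1 hydrophobic clonotypes of Tet2KO NOD 1, Tet2KO NOD 2, NOD 1 and NOD 2, or 1.29% of all hydrophobic clonotypes, and in 25 other clonotypes (0.445%). Of the clonotypes with this pairing, 44.4% were hydrophobic (20 of 45, 30.9 to 58.8%). With TRAJ50 and another TRAV the share was 28.7% (51 of 178), with TRAV5-4 and another TRAJ 19.4% (86 of 443), and over all clonotypes 21.7%.

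Many of these 20 clonotypes had similar β chains, and 1 of Tet2KO NOD 2 was counted 2 times because of the TRBV13-2 naming. Of them, 17 used the TRBV13 family, 13 joined it to TRBJ2-3, and 17 had a TRB CDR3 of 16 or more residues. Of the 25 other clonotypes with the same α pairing, 11 used the family, 6 joined it to TRBJ2-3 and 11 were that long. With all of TRAV5-4, TRAJ50, the TRBV13 family and TRBJ2-3, 13 of 19 clonotypes were hydrophobic (68.4%), and with the same β segments but another α chain 66 of 221 were (29.9%). The commonest α loop of the TRAJ50 group was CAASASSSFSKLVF, found in 13 hydrophobic clonotypes of 21 with that loop, 1 of them under the name of the near copy TRAV5N-4. All 13 paired it with the TRBV13 family, and they came from 3 libraries with none in Tet2KO NOD 1. Its nucleotide sequence, of which there was only 1 among these members, is given with 3 more of the β loops beside the 1 printed above. The α gene is on chromosome 14 and the capitals mark codons 6 and 7 of the β loops.
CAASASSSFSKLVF, TRA: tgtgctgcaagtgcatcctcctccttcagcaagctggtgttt
NOD 1, 3 cells, TRB: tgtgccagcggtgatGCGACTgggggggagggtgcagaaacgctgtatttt
NOD 2, 1 cell, TRB: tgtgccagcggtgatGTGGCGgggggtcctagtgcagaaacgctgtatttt
Tet2KO NOD 2, 1 cell, TRB: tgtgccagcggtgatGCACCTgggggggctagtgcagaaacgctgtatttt
This pairing was chosen for its high hydrophobic share, so leaving it out lowers the TRAJ50 difference by construction. Without its clonotypes, TRAJ50 had a log2 fold change of 0.53 and no longer passed (edgeR adjusted p = 0.223), and TRBV13-1 had 0.44 (adjusted p = 0.0848), while the other 4 segments still passed.

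TRAV13-4-DV7 was used by 2.37% and 3.61% of hydrophobic clonotypes in Tet2KO NOD and 2.76% and 2.79% in NOD, against 1.51%, 1.13%, 1.78% and 0.824% of other clonotypes. The classes did not overlap (log2 fold change 0.97, SE 0.26, edgeR adjusted p = 0.0136). The call was lost without either Tet2KO NOD library (adjusted p = 0.106 without the first and 0.0831 without the second). It was carried by few clonotypes, 44 hydrophobic (98 cells) and 80 other (116 cells). The 44 used 18 TRAJ and 16 TRBV segments, with 7 on TRAJ39 and 6 on TRAJ40, and 47 of their 98 cells were in 2 clonotypes.

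Both of those clonotypes had the β loop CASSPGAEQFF, the only hydrophobic TRB CDR3 found in all 4 libraries among 1475 distinct ones. It occurred as 5 clonotypes with 5 nucleotide sequences, in 22 cells of Tet2KO NOD 1, 4 of Tet2KO NOD 2, 25 of NOD 1 and 2 of NOD 2. All 5 used TRBJ2-1 and TRAV13-4-DV7. The Tet2KO NOD 1 clonotype joined TRBV29 and paired with TRAJ40 (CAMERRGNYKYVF), whereas the other 4 joined TRBV15 and paired with TRAJ39 and the α loop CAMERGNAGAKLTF. The 5 sequences are given below to show the codons that wrote 1 protein loop, with codons 6 and 7 (glycine-alanine) in capitals.
Tet2KO NOD 1, TRBV29, 22 cells: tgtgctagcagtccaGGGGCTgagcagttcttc
Tet2KO NOD 2, TRBV15, 2 cells: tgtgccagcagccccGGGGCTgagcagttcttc
Tet2KO NOD 2, TRBV15, 2 cells: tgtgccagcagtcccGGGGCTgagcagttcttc
NOD 1, TRBV15, 25 cells: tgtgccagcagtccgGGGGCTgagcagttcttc
NOD 2, TRBV15, 2 cells: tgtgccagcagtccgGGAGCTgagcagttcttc
The loop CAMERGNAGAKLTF was found in 7 clonotypes over the series, and 6 of them were hydrophobic, all with TRBV15.

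The 7 other α segments most used by the members did not pass. TRAV5-4 had a mean share of 6.91 ± 1.08% in hydrophobic and 6.83 ± 0.420% in other clonotypes (SD, n = 4 libraries), TRAV6N-7 5.88 ± 0.839% and 5.53 ± 0.737%, TRAV16N 5.87 ± 1.33% and 5.61 ± 0.590%, and TRAV9-1 3.95 ± 1.89% and 3.93 ± 0.663%. TRAJ23 had 4.93 ± 0.857% and 4.80 ± 0.661%, TRAJ40 4.73 ± 1.36% and 4.50 ± 0.773%, and TRAJ31 4.08 ± 1.21% and 4.21 ± 0.508%. Each class difference was smaller than the SD between libraries. Mouse TRAV segments have near-identical copies, whose names end in D or N, so reads can be split between them.

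Between genotypes, TRAJ52 alone passed among 54 segments tested within the hydrophobic clonotypes (1.85%). TRAJ52 lies at chr14:54165316-54165381 on the plus strand of GRCm38. It was used by 3 of 169 hydrophobic clonotypes in Tet2KO NOD 1 (1.78%) and 0 of 194 in Tet2KO NOD 2, which allows a share of up to 1.55%. It was used by 39 of 834 in NOD 1 (4.68%) and 14 of 358 in NOD 2 (3.91%). Pooled, the share in Tet2KO NOD was 0.186 times that in NOD (exact 95% counting interval 0.0372 to 0.573). This interval counts clonotypes and leaves out the spread between pools, so it does not establish a difference between genotypes. The log2 fold change was -2.38 (SE 0.57, edgeR adjusted p = 0.0128). At an unadjusted p under 0.05 there were 3 of 54 segments (5.56%). TRAJ52 reached the count minimum of 10 clonotypes only in the NOD libraries, where it was higher, so this call is given as a description.

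In the other clonotypes TRAJ52 was at 3.01% and 4.38% in Tet2KO NOD and at 3.66% and 2.92% in NOD, which overlap. The interaction of class and genotype was -2.53 on the log2 scale (SE 0.69, edgeR adjusted p = 0.0308), 1 of 91 segments (1.1%), with 4 (4.4%) at an unadjusted p under 0.05. Without Tet2KO NOD 2 neither passed, with a genotype difference of -1.31 (adjusted p = 0.716) and an interaction of -1.13 (adjusted p = 0.809). The interaction was also not called without any other single library, and without either NOD library TRAJ52 did not reach the count minimum for the genotype test. The genotype difference was also not called with TMM factors (adjusted p = 0.224), by DESeq2 (adjusted p = 0.847) or with each cell counted once (adjusted p = 0.439). The 56 hydrophobic TRAJ52 clonotypes used 28 TRAV segments and held 96 cells, 31 of them in the largest NOD 1 clonotype. Of the 54 segments, 18 (33.3%) did not overlap between genotypes.

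Clone size was compared within each library, where both classes share depth. Clonotypes with 2 or more cells made up 19.5% and 11.3% of hydrophobic clonotypes in Tet2KO NOD and 12.9% and 12.0% in NOD, against 18.8%, 15.6%, 13.6% and 13.5% of other clonotypes. Hydrophobic clonotypes were expanded slightly more often in Tet2KO NOD 1 and less often in the other 3 libraries. The difference was -1.42 ± 2.13 percentage points (exact paired permutation p = 0.375, n = 4), within the spread between libraries. Leaving out Tet2KO NOD 2 made it -0.464, and leaving out Tet2KO NOD 1 made it -2.15. Among TRB CDR3s of 14 residues it was -6.84, and among those of 14 or more it was -3.43 (each exact p = 0.125, the smallest possible). The class difference itself did not differ between genotypes beyond the spread (-0.697 percentage points, exact permutation p = 1, n = 2 each).

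Large clones held fewer of the hydrophobic cells in 3 of 4 libraries. Clonotypes of 10 or more cells contained 26.6% and 0% of hydrophobic cells in Tet2KO NOD and 14.5% and 5.51% in NOD, against 24.8%, 8.50%, 20.4% and 18.0% of other cells. The difference was -6.27 ± 6.03 percentage points (exact paired permutation p = 0.25, n = 4). It was -14.8 among TRB CDR3s of 14 residues and -14.1 among those of 14 or more (each exact p = 0.125), and -11.7 with both residues nonpolar (exact p = 0.25). In Tet2KO NOD 2, 0 of 194 hydrophobic clonotypes had that size, which allows up to 1.55% of clonotypes.

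**Figure D5:**
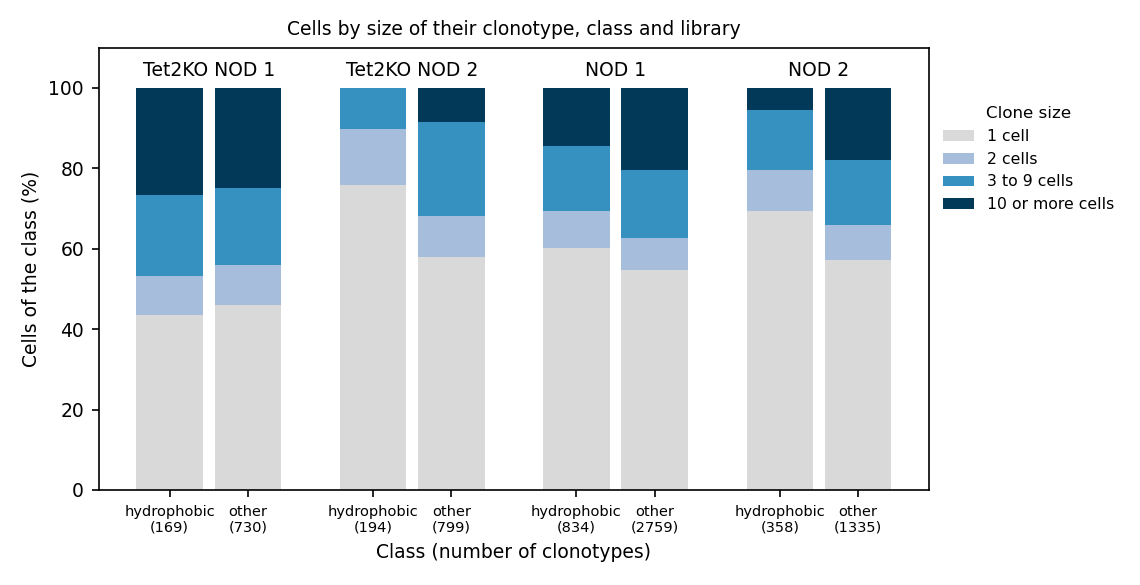
Percent of cells in clonotypes of 1, 2, 3 to 9, and 10 or more cells, for hydrophobic (left) and other (right) cells of each library, with the number of clonotypes in brackets. The darkest block, clones of 10 or more cells, is 26.6% of hydrophobic cells in Tet2KO NOD 1, absent in Tet2KO NOD 2, and smaller than in other cells in both NOD libraries.

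The 3 largest hydrophobic clonotypes of each library differed in their residues. In Tet2KO NOD 1 they had 32, 22 and 16 cells, and the first was the second largest clonotype of its library at 2.00% of paired cells (1.42 to 2.80%). It carried glycine-isoleucine, the second was the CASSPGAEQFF clonotype, and that of 16 cells carried leucine-glycine on TRBV31 and TRBJ2-1 (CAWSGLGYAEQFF). The first paired TRAV9-1 with TRAJ53, and that of 16 cells paired TRAV3-3 with TRAJ31.

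In Tet2KO NOD 2 the largest had only 7, 4 and 3 cells, and the first ranked 17 among all clonotypes. They carried leucine-glutamine, phenylalanine-tyrosine and alanine-tryptophan, and the first 2 paired with TRAV3-3. In NOD 1 the largest had 31, 26 and 25 cells, with alanine-serine, aspartate-isoleucine and alanine-serine. Their α chains were TRAV7D-4 with TRAJ52, TRAV16N with TRAJ42, and TRAV1 with TRAJ45. The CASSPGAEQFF clonotype of NOD 1 also had 25 cells. In NOD 2 they had 15, 10 and 8 cells with tryptophan-alanine, valine-glutamate and valine-glycine, and those of 15 and 8 cells used TRAV16N. No residue pair was largest in more than 1 library.

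Fewer hydrophobic than other clonotypes had a TRB CDR3 seen in another library. A TRB CDR3 amino-acid sequence found in more than 1 library was carried by 3.55% and 5.67% of hydrophobic clonotypes in Tet2KO NOD and 2.88% and 4.75% in NOD, against 9.59%, 10.5%, 4.64% and 6.97% of other clonotypes. It was lower in 4 of 4 libraries, by 3.72 ± 2.06 percentage points (exact paired permutation p = 0.125, the smallest possible). The smaller class offers fewer sequences to match. Scaled to the number of possible CDR3 pairs (per 1000000 pairs), hydrophobic sequences were shared at 17.6 to 75.6 over the 6 pairs of libraries and other sequences at 13.0 to 37.0, and the hydrophobic value was lower only for Tet2KO NOD 1 with NOD 2. Of whole clonotypes, 2 of 1553 hydrophobic ones (0.129%) and 32 of 5589 other ones (0.573%) were found in more than 1 library. These shares are not scaled to the possible pairs, so the smaller size of the hydrophobic class enters them and they do not show less sharing. The shared hydrophobic clonotypes were the TRBV16 clonotype printed above, with 13 cells in Tet2KO NOD 1 and 7 in NOD 1, and a TRBV1 clonotype with 1 cell in each of the same libraries.

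Rearrangements of named α-chain lineages were read as the hydrophobic share within each. Of invariant NKT rearrangements, TRAV11 family with TRAJ18, 3 of 24 clonotypes were hydrophobic (12.5%, 4.34 to 31.0%). Of TRAV16 family with TRAJ42, 11 of 57 clonotypes (19.3%) and 50 of 296 cells (16.9%) were. Of TRAV5 family with TRAJ53 or TRAJ42, 17 of 67 clonotypes (25.4%) and 19 of 151 cells (12.6%) were. The intervals of the 3 clonotype shares include the 21.7% of all clonotypes.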

How the data were processed

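Single-cell TCR contigs of 4 islet libraries were analysed. Per the submitters' processing notes, the authors used Cell Ranger 7.0.1 and the GRCm38 (mm10) build; other settings are not given in the sources used here. The deposited tables list each contig with its read and UMI count, segment names and CDR3. The labels' extraction text describes nuclei and an ATAC protocol, so how the TCR libraries were made is not clear from it.

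Contigs flagged high-confidence, full-length and productive in barcodes flagged as cells were kept. Cells needed exactly 1 TRB and at least 1 TRA, and the TRA with the most UMIs was used; cells with more than 1 TRB were left out; no doublet caller was run. Members, lists and tests were chosen with earlier results of these data known. Segments with at least 10 clonotypes in at least 4 columns (2 columns for genotype) were tested with edgeR 4.0.16 in R 4.3.3 (quasi-likelihood, Benjamini-Hochberg over all segments tested, column totals as library sizes). A column is 1 class in 1 library. Single values had exact two-sided permutation tests over libraries (SciPy 1.17.1). Tested on simulated data for the class contrast over 91 segments, 34.1%, 80.5% and 91.8% of segments changed 1.5-, 2- and 3-fold were recovered. The simulation used the fitted dispersion and the same fold change in each library. It therefore does not show recovery where a class difference varies between libraries.

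Named segments were those that passed, the 4 of each kind with the highest mean member share, and those passing a genotype or interaction test; named residues were the 5 most frequent at each position and the 5 most frequent pairs; named clonotypes were the 3 largest per library and those shared between libraries. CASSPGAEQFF, TRAV5-4 with TRAJ50, TRBV13-3 and the V ends of TRBV16, TRBV1, TRBV17, TRBV3 and TRBV15 were added after their values were seen. So were TRAV10N, TRAJ45 and the single TRBJ segments compared with their cluster. Germline ends were read from GRCm38 by annotation. Alternatives were another position pair, threshold, definition of hydrophobic, length, UMI minimum, clonotype definition, normalization, filter, tool, and leaving out each library.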

Additional observations from a re-analysis of the deposited data

Results flagged for a closer look

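The class difference in the use of TRAJ52 passed the interaction test with genotype, at -2.53 on the log2 scale (edgeR adjusted p = 0.0308). This p-value rests largely on clonotype counts from 2 pools per genotype, so it does not establish a difference between genotypes. Hydrophobic minus other clonotypes was -1.24 and -4.38 percentage points in the Tet2KO NOD libraries, against 1.02 and 0.989 in the NOD libraries. The call was lost without any 1 of the 4 libraries (adjusted p = 0.430 without Tet2KO NOD 1, 0.809 without Tet2KO NOD 2, 0.570 without NOD 1 and 0.0933 without NOD 2).

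Among the named segments that did not pass the interaction test, TRAV16N had class differences of opposite sign in the genotypes. Both Tet2KO NOD libraries showed more use of it in the hydrophobic class (0.986 and 1.60 percentage points) and both NOD libraries less (-0.496 and -1.04). The genotypes' mean class differences were 2.06 percentage points apart, and the interaction did not pass (log2 fold change 0.49, edgeR adjusted p = 0.925).

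The mean hydropathy of TRA CDR3 residues 6 and 7 was lower beside a hydrophobic β loop in both Tet2KO NOD libraries (-0.0562 and -0.0900) and higher in both NOD libraries (0.0228 and 0.0362). The genotypes were -0.103 apart, and this difference was not tested. TRB CDR3 residue 8 had the same pattern, with class differences of -0.0696 and -0.0272 in Tet2KO NOD and 0.141 and 0.0128 in NOD, -0.125 apart, which was not tested either. TRAJ52 was picked because its interaction passed. The rest were picked because each genotype's libraries moved one way, which happens by chance in some of many comparisons with 2 libraries each.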

How the results depend on the processing

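With 2 pools per genotype no genotype test of a single value could pass, and leaving out libraries changes how many segments reach the count minimum. Length, cells with more than 1 TRA and shared TRB CDR3s kept their direction under every alternative run for them, except that leaving out cells with more than 1 TRA makes their own difference 0 by construction. For shared TRB CDR3s this holds for the unscaled share only. Scaled to possible CDR3 pairs, the hydrophobic value was lower only for Tet2KO NOD 1 with NOD 2. Moving the rule to residues 5 and 6 reversed the genotype difference in the share of clonotypes (0.888 percentage points) and of cells (1.25), and the class differences in expanded clonotypes (0.264), large clones (1.83), TRA length (0.00129 residues) and TRB UMIs (0.625). It also reversed TRBV12-2+TRBV13-2 (-1.13 on the log2 scale), TRBV13-1 (-1.30), TRAJ50 (-0.24), TRAV13-4-DV7 (-0.32) and TRBJ1-1 (0.15), and called 17 segments by class (9 higher, 8 lower), of which 2 were among the 6. Residues 7 and 8 reversed the share of cells (0.749), TRA length (0.0114), TRBV12-2+TRBV13-2 (-0.14) and TRAJ50 (-0.18). The genotype difference in expansion (-0.697) became 1.44 within set 1, 1.15 with residues 7 and 8, 0.216 with TRB-only clonotypes and 0.830 with codons 6 and 7 outside the V and J matches; leaving out 1 library gave -3.23 to 1.83. TRA length became 0.0560 with those codons. Residue 5 hydropathy became 0.0561 above a threshold of 1 and 0.0877 at 14 residues. Residue 8 became -0.141 at 14 residues, -0.00385 without cells with more than 1 TRA and -0.0618 per cell (leaving out 1 library: -0.0280 to 0.0421). TRA hydropathy became 7.15e-06 at 14 or more residues and 0.00296 with a UMI minimum (leaving out 1 library: -0.0411 to 0.000919). TRAV13-4-DV7 was -0.03 when both residues had to be nonpolar, and TRBJ2-3 had -0.019 at 14 residues. Against 6 segments called by class, there were 0 with both residues nonpolar, 3 with codons outside the matches, 1 per cell, 1 with residues 7 and 8, 3 at 14 residues, 1 by DESeq2 and 0 to 5 leaving out 1 library (0 without NOD 1, 2 without Tet2KO NOD 1, both also among the 6). The genotype call (1) became 0 with both residues nonpolar, codons outside, per cell, residues 5 and 6, residues 7 and 8, 14 or more residues, 14 residues, no cells with more than 1 TRA, DESeq2 and TMM, and 0 to 1 leaving out 1 library. The interaction call (1) became 0 under the same settings except TMM, and also above 1, with the UMI minimum and leaving out any 1 library (0 to 0); it became 2 without clonotypes in more than 1 library. The set numbers pair only 2 libraries of each genotype (r = 0.306 over 54 segments), so they are not taken as pairs. In a fit with a replicate block for the set, the genotype count was again 1 (TRAJ52 -2.28, edgeR adjusted p = 0.0329). The cause of these changes was not tested.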
